A study of Homo sapiens with 12 samples.

Results

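Kallikreins are secreted serine proteases encoded side by side on chromosome 19, and the genes described here are the 10 of that family, KLK5 to KLK14, that lie outside the androgen-regulated end of the cluster. The members were taken by gene name from the deposited table, which held all 10 of them among 58302 genes. Kallikreins are made as inactive zymogens, are switched on by cleavage of a short leader peptide, often by one another or by membrane-bound proteases, and are held in check by secreted inhibitors. In stratified epithelium, KLK5, KLK7 and KLK14 take part in the shedding of the outermost cells by cutting the proteins of the cell junctions, while in the prostate the family is best known for KLK3 (prostate-specific antigen), which androgens induce.

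RNA-seq of the study covered 12 libraries of total RNA, 4 each from BPH-1, DU145 and PC3, and compared a benign prostate line with PCa (prostate cancer) lines. BPH-1 is an epithelial line derived from benign prostate tissue and made immortal with a viral antigen, and DU145 and PC3 are established lines derived from metastases of PCa. All 3 lines are labelled WT, carry no treatment in their labels, and were grown in the same DMEM with serum and antibiotics. Each group is 1 cell line, so the line and the disease state cannot be told apart, and nothing in the labels says whether the 4 libraries of a line came from separate cultures, so that the p-values measure only the spread between libraries, which may be technical.

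Values are FPKM, reads per kilobase of gene length and per fixed number of sequenced reads, as deposited, and the number of reads behind a value was recovered from the steps between low values (12950664 to 16309559 reads per library). Of the simple epithelial markers, KRT8 and KRT18 had mean levels of 19.7 to 69.0 FPKM in every line. KRT19 had 31.96, 22.7 and 232 FPKM in BPH-1, DU145 and PC3, while EPCAM had 60.8, 0.38 and 9.10 and CDH1 had 28.4, 0.18 and 0.79 in the same order. The basal markers KRT5, KRT14, KRT15, TP63 and ITGA6 summed to 379 to 500 FPKM in BPH-1 libraries, against 2.60 to 13.9 in DU145 and 10.9 to 31.6 in PC3. Of the luminal secretory markers, KLK3 had 0 reads in all 12 libraries, and the list summed to 4.93 to 6.93 FPKM in BPH-1, 4.88 to 8.68 in DU145 and 2.78 to 3.44 in PC3. Leukocyte markers (PTPRC, LYZ, CD14 and CD3E) summed to 9.58 to 12.5 FPKM in BPH-1, to 9.53 and 10.3 in DU145 replicates 1 and 2, to 0 and 0.039 in DU145 replicates 3 and 4, and to 0.080 to 0.23 in PC3, with CD3E at 0 reads throughout. The DU145 libraries divided in another way at the basal markers, which summed to 4.42 and 2.60 FPKM in replicates 1 and 3 and to 12.6 and 13.9 in replicates 2 and 4. They divided that way over all genes too, with a chi-square of recovered reads per gene of 37.2 between replicates 1 and 3 and 23.7 between replicates 2 and 4, against 105 to 216 for the other pairs.

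In GRCh38 all members are read from the minus strand of chromosome 19, from KLK5 (chr19:50943303-50953093) through KLK6 (chr19:50958631-50969673), KLK7 (chr19:50976482-50984099), KLK8 (chr19:50996007-51002711), KLK9 (chr19:51003111-51009634), KLK10 (chr19:51012739-51020175), KLK11 (chr19:51022216-51028039), KLK12 (chr19:51029092-51035230) and KLK13 (chr19:51056206-51065114) to KLK14 (chr19:51077495-51084245). RefSeq promoter windows of GRCh38.p14, which run from 250 bases before to 50 bases after a start site, were found for 9 of the 10 members, 16 windows in all, and not for KLK8. The sequences of the members that the results turn on are shown 5′ to 3′ on the strand of the gene, for the stretch before the start site that no GENCODE exon covers, with CpG dinucleotides in capitals. They are given because KLK5, KLK6, KLK7 and KLK10 had their reads mainly in BPH-1 and KLK14 had its reads mainly in PC3.
KLK5: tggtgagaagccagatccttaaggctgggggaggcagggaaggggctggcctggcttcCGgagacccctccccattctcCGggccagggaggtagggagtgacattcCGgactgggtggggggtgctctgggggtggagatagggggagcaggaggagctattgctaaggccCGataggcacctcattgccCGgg
KLK6: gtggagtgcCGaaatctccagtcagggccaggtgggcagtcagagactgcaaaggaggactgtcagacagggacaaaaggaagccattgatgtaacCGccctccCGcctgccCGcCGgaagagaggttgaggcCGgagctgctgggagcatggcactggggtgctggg
KLK7: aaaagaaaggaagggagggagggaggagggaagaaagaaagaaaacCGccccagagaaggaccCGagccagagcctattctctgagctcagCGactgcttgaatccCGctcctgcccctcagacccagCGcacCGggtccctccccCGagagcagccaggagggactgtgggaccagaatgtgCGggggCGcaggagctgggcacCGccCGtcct
KLK10: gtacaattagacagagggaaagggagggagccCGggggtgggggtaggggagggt
KLK14: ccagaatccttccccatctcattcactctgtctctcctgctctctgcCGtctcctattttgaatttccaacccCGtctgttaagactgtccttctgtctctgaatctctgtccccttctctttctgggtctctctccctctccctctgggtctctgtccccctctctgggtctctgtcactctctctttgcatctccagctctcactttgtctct
These stretches are chr19:50953094-50953288 (KLK5), chr19:50969674-50969841 (KLK6), chr19:50984100-50984314 (KLK7), chr19:51019765-51019819 (KLK10) and chr19:51084246-51084460 (KLK14). Over whole windows, KLK6 and KLK7 had 15 and 15 CpG at the sites shown, KLK10 had 11, KLK5 had 7 and KLK14 had 2, against a median of 14 over 35116 promoters. The KLK14 window at the site shown had more CpG than 11.0% of all promoters. That of KLK5 had more than 36.8%, and that of KLK7 more than 51.1%. Other windows had 4 and 3 CpG for KLK14 (more than 24.5% and 18.2% of promoters), 16 and 13 for KLK7 and 9 for KLK10. KLK11, not shown, also had its reads mainly in BPH-1, and its windows had 3 and 11 CpG (more than 18.2% and 45.3% of promoters). Which start site each line uses was not tested. The 16 windows were searched on both strands for 3 motifs, none of which holds another. The TATA box, as TATAAA, was in 11.5% of all promoters. The AP-1 site, spelled TGANTCA, was in 7.71% of them. A grainyhead-like site, written AACNGGTT, was in 1.73%. Not one of the 16 windows held any of the 3, which says only that these letters are not in these windows.

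In BPH-1, 5 of the 10 members had reads in every library, namely KLK5, KLK6, KLK7, KLK10 and KLK11. Their mean levels in FPKM were 3.10 ± 1.94 for KLK10, 1.44 ± 1.38 for KLK7, 1.05 ± 0.32 for KLK6, 0.93 ± 0.81 for KLK5 and 0.36 ± 0.38 for KLK11 (SD, n = 4 libraries each). The ranges of neighbours in this order overlapped across libraries in every case. Within each of the 4 libraries, KLK10 was the highest and KLK11 the lowest of these 5, and KLK7 was above KLK5, whereas KLK7 was above KLK6 in 2 of the 4 (replicates 2 and 4) and KLK6 above KLK5 in 3 of the 4. KLK10 made up 42.9% of the summed mean FPKM of the 10 members in BPH-1, and its mean was above that of 63.8% of protein-coding genes. In PC3 the sum was much smaller, 0.63 FPKM against 7.23 in BPH-1, and KLK14 made up 85.7% of it. In DU145 the sum was 0.17 FPKM, of which KLK14 made up 75.1% and KLK10 21.1%. FPKM of the authors divides by the length of all distinct exons, which counts shared bases of alternative exons more than once, so comparisons between genes depend on how many alternative exons each gene has.

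**Figure D1:**
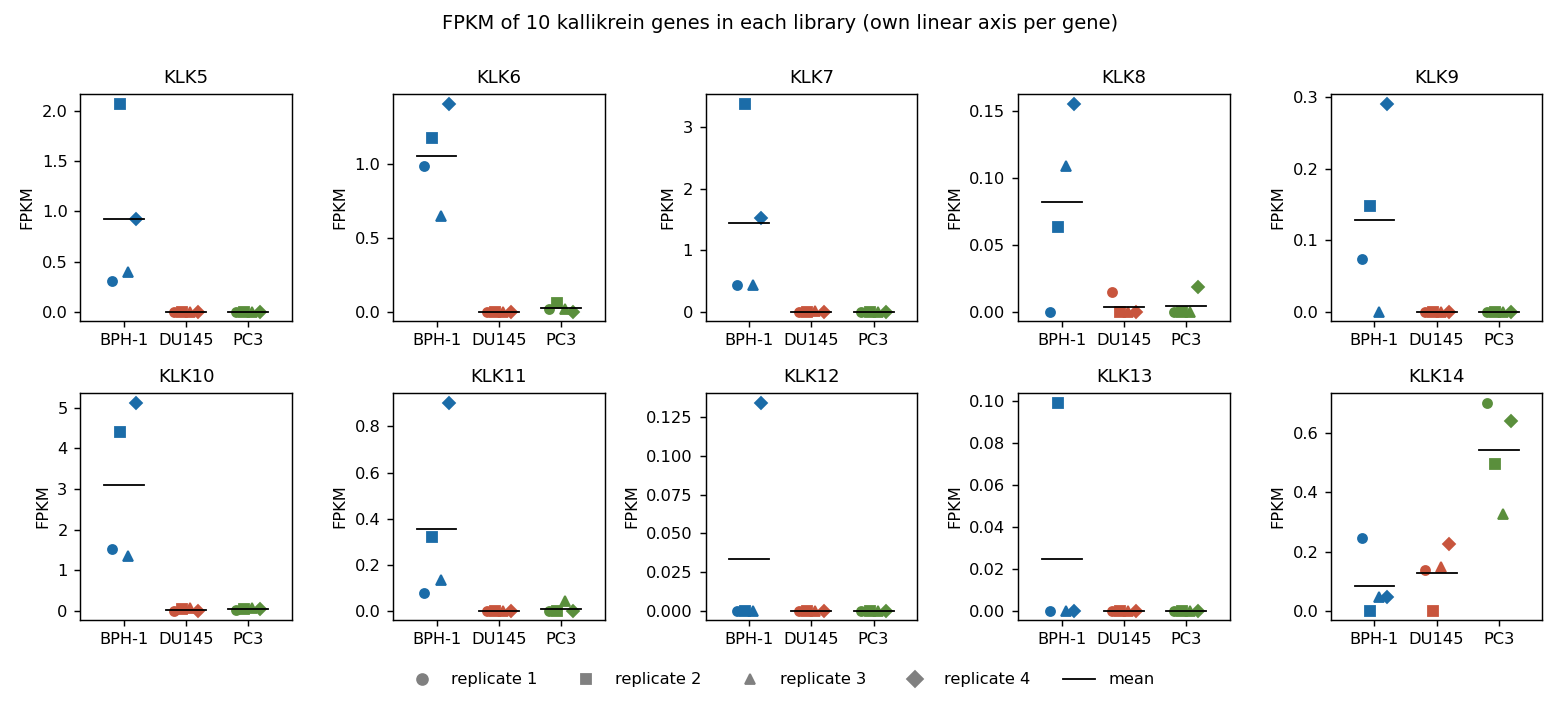
FPKM of each kallikrein in each library, with 1 panel per gene on its own linear axis, symbols for the replicate number, colours for the line and a black line at the mean. KLK5, KLK6, KLK7, KLK10 and KLK11 lie above 0 in all BPH-1 libraries and near 0 in DU145 and PC3, whereas KLK14 is highest in PC3, from 0.33 to 0.70 FPKM.

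The proteases of the skin cascade come first. KLK5, a trypsin-like enzyme that can activate itself, KLK7 and KLK14, had 0.311, 2.07, 0.398 and 0.923 FPKM in BPH-1 replicates 1 to 4, from 14, 92, 18 and 42 reads, and 0 reads in all DU145 and PC3 libraries. Replicate 2 was the highest, and the BPH-1 libraries did not overlap with either PCa line. A count of 0 allows up to 3 reads, which was 0.063 to 0.079 FPKM in a single DU145 or PC3 library. Against 3 reads over the 4 libraries of a line, KLK5 was at least 54.9-fold higher in BPH-1 than in DU145 and at least 47.9-fold higher than in PC3, and without BPH-1 replicate 2 these bounds were 32.5 and 28.3. On the log2(FPKM + 1) scale, which understates the change of genes this low, KLK5 fell by 0.86 (SE 0.23) in PC3 (limma with Benjamini-Hochberg adjustment over all genes tested, adjusted p = 0.00784), and it fell by 0.86 (SE 0.22) in DU145 (adjusted p = 0.00737, limma).

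KLK7, the chymotrypsin-like partner of KLK5 that cuts corneodesmosin, had 0.431, 3.37, 0.439 and 1.52 FPKM in BPH-1 replicates 1 to 4, from 38, 294, 39 and 136 reads. DU145 held 1 read, in replicate 3, and PC3 held none. All BPH-1 libraries were above all DU145 and PC3 libraries. KLK7 was at least 146-fold higher in BPH-1 than in PC3. Its ratio to DU145 was 503, with a 95% counting interval of 89.9 to 19918 because a single read stands below it. Without BPH-1 replicate 2, the bound against PC3 was 81.6 and the ratio to DU145 was 282. The log2(FPKM + 1) of KLK7 fell by 1.13 (SE 0.31) in PC3 (limma, adjusted p = 0.00969) and fell by 1.12 (SE 0.31) in DU145 (limma, adjusted p = 0.00923). Without DU145 replicates 1 and 2, the libraries with leukocyte markers, the KLK7 value of −1.12 did not pass (limma, adjusted p = 0.0533). Without DU145 replicates 1 and 3, neither KLK7 (log2 −1.13, limma adjusted p = 0.0621) nor KLK5 (log2 −0.86, limma adjusted p = 0.0541) passed.

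KLK14, a trypsin-like protease that acts with KLK5 and KLK7 in skin and cleaves the receptor PAR2, ran the other way. It had 0.700, 0.496, 0.327 and 0.642 FPKM in PC3 replicates 1 to 4, from 12, 9, 6 and 11 reads. In BPH-1 it had 0.245, 0, 0.0487 and 0.0484 FPKM from 5, 0, 1 and 1 reads, and in DU145 0.140, 0, 0.147 and 0.225 FPKM from 3, 0, 3 and 4 reads. Every PC3 library was above every library of the other 2 lines, which overlapped with each other. The means were 0.54 ± 0.17 in PC3, 0.086 ± 0.109 in BPH-1 and 0.13 ± 0.09 in DU145 (SD, n = 4), a ratio of 6.33 over BPH-1 and 4.23 over DU145. Leaving out BPH-1 replicate 1 left 2 reads in that line and a ratio of 16.7, with a 95% counting interval of 4.26 to 141. The lowest ratios were 4.75 over BPH-1, without BPH-1 replicate 2, and 3.17 over DU145, without DU145 replicate 2.

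KLK14 did not pass the filter of 10 reads at median depth in at least 4 libraries, and so stood outside the main test. The exact two-sided permutation test over libraries gave p = 0.0286 for PC3 against BPH-1 and p = 0.0286 for PC3 against DU145, the smallest that 4 against 4 libraries can give, and p = 0.514 for DU145 against BPH-1. With no filter on low values, KLK14 was higher by 0.50 (log2, SE 0.10) in PC3 than in BPH-1 (limma, adjusted p = 0.00449) and by 0.45 (SE 0.10) in PC3 than in DU145 (limma, adjusted p = 0.0111). The sums of fibroblast and endothelial markers were also highest in PC3. The former were 3.96 to 7.14 FPKM in PC3 against 1.73 to 3.43 in BPH-1 and 0.42 to 1.30 in DU145. The latter were 1.52 to 3.57 against 0.25 to 0.63 and 0.12 to 0.39. Among these markers, PDGFRA and KDR had 8 and 6 reads in BPH-1 and passed the filter through PC3, where they are high. For both lists together, 4 of the 4 markers tested were higher in PC3 than in BPH-1 (COL1A1, PDGFRA, PECAM1 and KDR), beside 27.1% of 16408 genes. Of the 6 others, which were not tested, COL3A1 had means of 0.091, 0.012 and 0.050 FPKM in PC3, BPH-1 and DU145, whereas COL1A2, DCN, LUM, VWF and CDH5 were lowest in PC3 or at 0 there, from 0 to 0.0059 FPKM. Their part in the result was not tested. CTU1, the protein-coding gene next to KLK14 on the side away from the other members, which encodes a tRNA-modifying enzyme, was chosen after its values were seen and had 7.92, 6.78, 6.84 and 10.4 FPKM in PC3, against 3.05 to 4.04 in BPH-1 and 1.73 to 4.97 in DU145. CTU1 was higher in PC3 by 1.04 (log2, SE 0.15) than in BPH-1 (limma, adjusted p = 0.00022) and by 1.03 (SE 0.25) than in DU145 (limma, adjusted p = 0.00771).

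KLK10, first described as a gene of normal epithelial cells that is lost in breast cancer lines, was the most abundant member. It had 1.53, 4.41, 1.35 and 5.11 FPKM in BPH-1 replicates 1 to 4, from 186, 532, 165 and 630 reads. DU145 had 0.0078, 0.062, 0.074 and 0 FPKM from 1, 8, 9 and 0 reads, and PC3 had 0.029, 0.046, 0.073 and 0.049 FPKM from 3, 5, 8 and 5 reads. The lowest BPH-1 library was far above the highest of either PCa line, while DU145 and PC3 overlapped (exact two-sided permutation p = 0.514). KLK10 was 86.2-fold higher in BPH-1 than in DU145 and 62.8-fold higher than in PC3. Leaving out 1 library gave 64.7 (without DU145 replicate 4) to 133 (without DU145 replicate 3) against DU145. Against PC3 it gave 49.2 (without BPH-1 replicate 4) to 74.7 (without PC3 replicate 3). The log2(FPKM + 1) of KLK10 fell by 1.83 (SE 0.30) in PC3 (limma, adjusted p = 0.000441) and fell by 1.85 (SE 0.29) in DU145 (limma, adjusted p = 0.000398). An antisense gene that overlaps KLK10, AC011473.2, had 1 read in BPH-1 replicate 2 and 0 reads in all other libraries.

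KLK6, a trypsin-like protease also known as neurosin for its abundance in brain, was the steadiest member in BPH-1. It had 0.982, 1.18, 0.650 and 1.40 FPKM there, from 54, 64, 36 and 78 reads, and 0 reads in DU145. PC3 had 0.022, 0.061, 0.020 and 0 FPKM from 1, 3, 1 and 0 reads. BPH-1 did not overlap with either line, and PC3 and DU145 overlapped. KLK6 was at least 76.8-fold higher in BPH-1 than in DU145 and 40.8-fold higher than in PC3. The latter was 75.4 without PC3 replicate 2 and 30.6 without PC3 replicate 4. The log2(FPKM + 1) of KLK6 fell by 0.99 (SE 0.10) in PC3 (limma, adjusted p = 2.83e-05) and fell by 1.02 (SE 0.10) in DU145 (limma, adjusted p = 2.33e-05).

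KLK11, a trypsin-like protease found in several glandular and stratified tissues, had 0.0767, 0.320, 0.133 and 0.900 FPKM in BPH-1 replicates 1 to 4, from 8, 33, 14 and 95 reads. DU145 had 0 reads, and PC3 had 4 reads, all in replicate 3. BPH-1 libraries lay above those of both PCa lines without overlap (exact two-sided permutation p = 0.0286 in each comparison, the smallest possible), although KLK11 did not pass the filter of the main test. With no filter on low values, its log2 values of −0.39 (SE 0.16) in PC3 and −0.40 (SE 0.16) in DU145 did not pass (limma, adjusted p = 0.104 and 0.0889). KLK11 was at least 49.6-fold higher in BPH-1 than in DU145 and 33.5-fold higher than in PC3. Without BPH-1 replicate 4 these were 24.3 and 16.6.

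The 4 remaining members were near the limit of what this depth shows. KLK8, known as neuropsin, had 0, 0.063, 0.109 and 0.155 FPKM in BPH-1 from 0, 4, 7 and 10 reads, and 1 read each in DU145 and PC3. KLK9, a chymotrypsin-like member, had 1, 2, 0 and 4 reads in BPH-1 and 0 in the other lines. KLK8 and KLK9 overlapped between lines (exact two-sided permutation p = 0.143 for each, in both comparisons with BPH-1). Both genes lie within AC011473.4, a protein-coding readthrough gene on the same strand, which had 7, 24, 5 and 4 reads in BPH-1, 1 read in DU145 and 0 in PC3, so the split of reads among these 3 genes is uncertain. KLK12, a trypsin-like protease, was detected only in BPH-1 replicate 4, with 7 reads. KLK13, another trypsin-like protease, was detected only in BPH-1 replicate 2, with 5 reads.

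**Figure D2:**
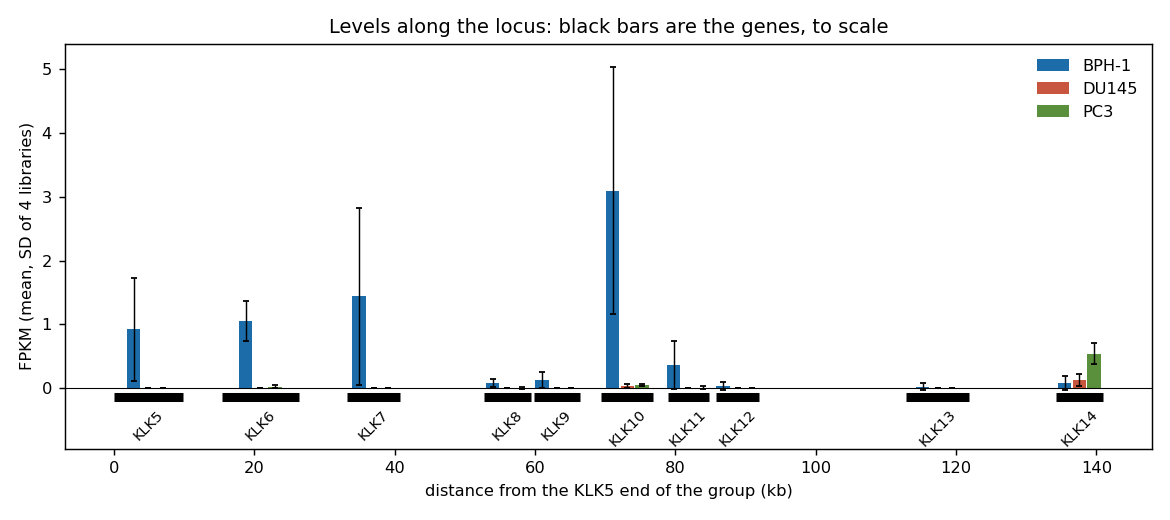
Mean FPKM of each kallikrein by line (bars, with SD of 4 libraries) against distance from the KLK5 end of the gene group in kb; black bars below 0 on the y axis mark the genes to scale. BPH-1 levels reach 3.10 FPKM at KLK10 and are 0.086 or less at KLK12, KLK13 and KLK14, and KLK14 is the one gene at which PC3 has the tallest bar.

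Across the comparisons, PC3 and DU145 are set against the same 4 BPH-1 libraries, so their results are not independent and are given side by side. Of the 10 members, 4 passed the filter against BPH-1 in each comparison, KLK5, KLK6, KLK7 and KLK10, and they passed through the BPH-1 libraries, in which they are high, so the counts over them are a description. In PC3 against BPH-1, all 4 of those tested were lower and 0 higher, beside 67.6% of 16408 genes called by limma in either direction, 27.1% higher and 40.4% lower. In DU145 against BPH-1, all 4 tested were lower and 0 higher, beside 62.7% of 17016 genes called, 30.3% higher and 32.4% lower. The medians of their log2 fold changes were −1.06 in PC3 and −1.07 in DU145, against −0.13 and −0.03 over all genes tested. In PC3 against DU145, 0 of the 10 members passed the filter, where 48.3% of 16420 genes tested were called, and with no filter 1 of 6 members with a read, KLK14, was called higher in PC3 by limma, beside 11.3% of 31401 genes called higher and 17.3% called lower in that fit.

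Without a filter on reads, 5 members (KLK5, KLK6, KLK7, KLK10 and KLK11) had all 4 PC3 libraries below all 4 BPH-1 libraries, beside 24.1% of 31906 genes with a read, and 1 member (KLK14) had all of them above, beside 16.7%. In DU145 against BPH-1, those 5 members did not overlap in the lower direction, beside 19.8% of 31821 genes, and 0 did in the higher direction, beside 18.1%. In PC3 against DU145, 1 member (KLK14) lay above without overlap, beside 12.2% of 31401 genes. By the exact two-sided permutation test at the threshold of 0.05, which takes the same members, 6, 5 and 1 of the 10 passed in these comparisons, beside 40.8%, 37.9% and 30.3% of genes. Leukocyte markers moved with the falls in PC3, where 3 of 3 tested were lower, beside 40.4% of all genes tested. These were PTPRC, LYZ and CD14, with 0, 10 and 18 reads in PC3, and all passed the filter there through BPH-1. In DU145 1 of 3 was lower, and replicates 1 and 2 summed to 9.53 and 10.3 FPKM of these markers, against 9.58 to 12.5 in BPH-1. The 10 kallikreins summed to 0.16 and 0.062 FPKM in DU145 replicates 1 and 2, 0.23 and 0.23 in replicates 3 and 4, and 3.12 to 11.7 in BPH-1 libraries. Basal markers moved with the falls, with 4 of 5 lower in PC3 and 5 of 5 in DU145, beside 40.4% and 32.4% of all genes tested. KRT5, KRT14 and TP63, with 5, 1 and 6 reads in PC3, passed the filter there through BPH-1. In DU145, KRT14 and TP63, with 35 and 23 reads, did so as well, so these counts are a description. The part of the leukocyte and basal markers in the result was not tested. In bulk RNA, fewer cells that express a gene and less RNA per cell cannot be told apart.

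**Figure D3:**
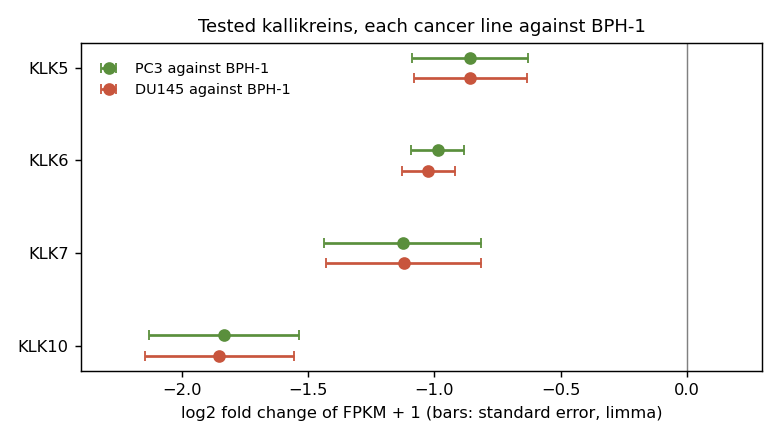
Log2 fold change of FPKM + 1 (x axis) for the 4 kallikreins that passed the filter, in PC3 and in DU145 against the same BPH-1 libraries, as points with limma standard errors. All points lie below 0, from −0.86 for KLK5 to −1.85 for KLK10, and the values of the PCa lines lie within each other's error bars.

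The BPH-1 libraries differed among themselves at these genes. The highest BPH-1 library was 11.7 times the lowest for KLK11, 7.82 times for KLK7, 6.64 times for KLK5, 3.80 times for KLK10 and 2.16 times for KLK6. Among 8892 genes with at least 8 reads in every BPH-1 library and a mean of at most 500 reads, the median ratio was 1.59, and ratios as wide as these were found in 0.439%, 1.0%, 1.36%, 5.23% and 22.2% of genes, in the same order. Summed over the 10 members, replicates 1 to 4 had 3.65, 11.7, 3.12 and 10.5 FPKM. Replicates 2 and 4 were above replicates 1 and 3 for all 5 kallikreins with at least 8 reads in each library, an order seen in 30.2% of those 8892 genes and in 25.9% of 15652 genes with no upper limit on reads. This order was looked for after the values were seen, and it is a description with no test. Depth did not differ along with it, being 15262886 to 15606584 reads in the 4 libraries.

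Most late keratinocyte genes had the same order in BPH-1. The list of cornified envelope and late keratinocyte genes summed to 78.3, 250.2, 91.4 and 307.3 FPKM in replicates 1 to 4, and 14 of its 17 genes with at least 8 reads in each library (82.4%) were higher in replicates 2 and 4. Among them were SPRR1A and SPRR1B, small proline-rich proteins of the cornified envelope, and TGM1, the transglutaminase that links it. KRT10 and CSTA, also on the list, did not have this order. Of the zymogen activators 5 of 6 (83.3%), of the inhibitors 5 of 8 (62.5%) and of the epithelial transcription factors 9 of 19 (47.4%) had this order, and so had 4 of 10 receptors and substrates (40.0%). Among cell type markers, 3 of 5 simple epithelial, 2 of 3 luminal secretory, 1 of 5 basal, 1 of 3 leukocyte, 1 of 2 endothelial and 0 of 1 fibroblast genes had it. KLK1, tissue kallikrein at the other end of the cluster, also had it, with 0.341, 1.27, 0.642 and 0.904 FPKM.

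**Figure D4:**
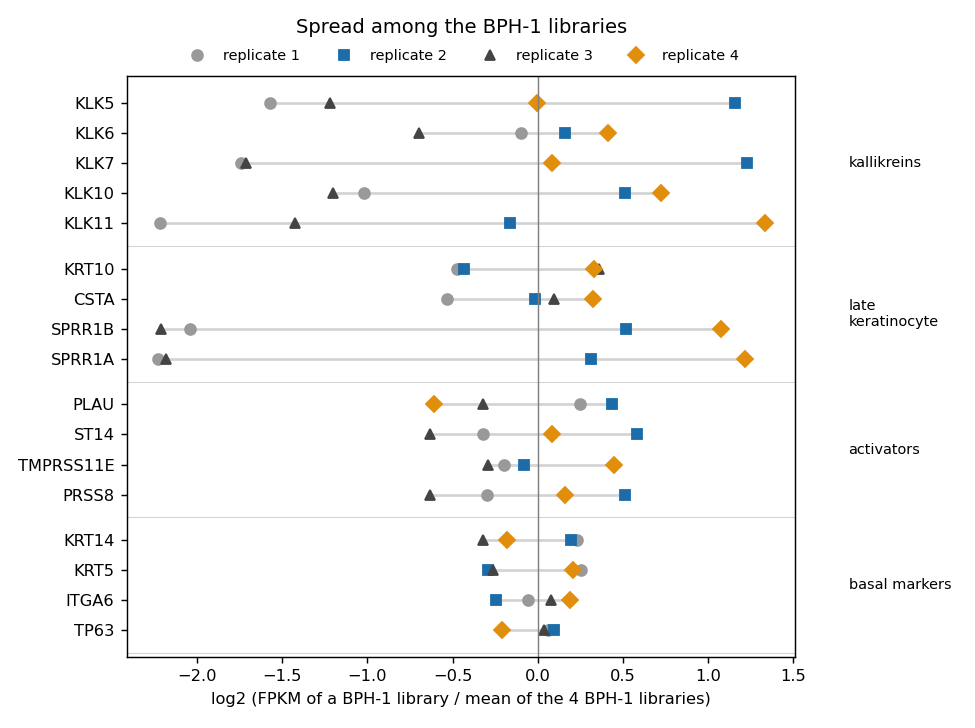
FPKM of each BPH-1 library relative to the mean of the 4 BPH-1 libraries (log2, x axis) for kallikreins and for the 4 genes of highest mean level in the lists of late keratinocyte genes, zymogen activators and basal markers. Replicates 2 and 4 lie to the right of replicates 1 and 3 for KLK5, KLK6, KLK7, KLK10 and KLK11 and for SPRR1A and SPRR1B. KRT10 and CSTA lack this order, and the basal markers shown spread less.

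The genes around the proteases were read from lists. Beside the counts below, 27.1% of all genes tested were called higher and 40.4% lower in PC3, and 30.3% and 32.4% in DU145. Some list genes, such as TMPRSS11E and ABCA12 with 0 reads in PC3 and 2 and 1 in DU145, passed the filter only through BPH-1. For these, lower was the only possible call, so the counts are a description. Of 19 kallikrein and related protease inhibitors, 8 were tested in PC3 against BPH-1, with 3 higher and 3 lower, and 9 in DU145 against BPH-1, with 2 higher and 5 lower (median log2 fold changes 0.20 and −1.43). PI3 (elafin), an inhibitor best known for elastase, had 914 ± 243 FPKM in PC3, 28.3 ± 22.7 in BPH-1 and 0.92 ± 0.37 in DU145 (SD, n = 4), which was higher by 5.35 (log2, SE 0.56) in PC3 and lower by −3.53 (SE 0.55) in DU145 (limma, adjusted p = 2.83e-05 and 0.000344). SLPI, secretory leukocyte peptidase inhibitor, had 135 ± 46.4, 74.3 ± 39.4 and 8.91 ± 2.81 FPKM in PC3, BPH-1 and DU145, and was lower in DU145 (limma, log2 −2.80, SE 0.39, adjusted p = 0.000168), while its value of 0.97 (SE 0.40) in PC3 did not pass (limma, adjusted p = 0.0545). SERPINB6, an intracellular serpin, was higher in both PCa lines, by 1.64 in PC3 and 1.69 in DU145 on the log2 scale. SPINT2, a Kunitz inhibitor of membrane-bound proteases, was lower in DU145 (log2 −2.23, SE 0.16). SPINK5, which encodes the inhibitor of KLK5 and KLK7 in skin and was singled out after its values were seen, had 0.048, 0.404, 0.193 and 1.70 FPKM in BPH-1, up to 0.056 in DU145 and 0 reads in PC3.

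Of 12 zymogen activators, 6 were tested in PC3 against BPH-1, with 2 higher and 4 lower, and 5 in DU145 against BPH-1, with 0 higher and 4 lower (medians −1.64 and −2.78). ST14 (matriptase), a membrane protease that starts activation cascades in epithelium, had 38.9 ± 14.5 FPKM in BPH-1, 1.22 ± 0.21 in PC3 and 0.98 ± 0.29 in DU145. PRSS8 (prostasin), its partner, had 6.25 ± 2.15, 0.18 ± 0.10 and 0.021 ± 0.028 FPKM, and TMPRSS11E, another membrane serine protease, had 22.2 ± 5.6, 0 and 0.013 ± 0.026 FPKM, in the same order. All 3 were lower in both PCa lines (limma log2 fold changes from −2.57 to −4.51). PLAU (urokinase) was higher in PC3 by 0.97 (log2, SE 0.21, limma adjusted p = 0.00284) and had a value of 0.46 (SE 0.26) in DU145 that did not pass (adjusted p = 0.14, limma).

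Of 16 receptors and substrates, 11 were tested in PC3 against BPH-1, with 1 higher and 6 lower, and 10 in DU145 against BPH-1, with 1 higher and 7 lower (medians −0.41 and −1.48). F2RL1, the receptor PAR2 that KLK5, KLK6 and KLK14 can cleave, had 24.7 ± 3.8 FPKM in BPH-1, 33.0 ± 10.0 in PC3 and 2.45 ± 1.01 in DU145, and was lower in DU145 than in BPH-1 (limma, log2 −2.93, SE 0.22, adjusted p = 3.95e-06), while its value of 0.36 (SE 0.24) in PC3 did not pass (limma, adjusted p = 0.203). CDH1 (E-cadherin) had 28.4 ± 12.2, 0.79 ± 0.44 and 0.18 ± 0.09 FPKM in BPH-1, PC3 and DU145, and DSG2, a desmosomal cadherin, had 50.9 ± 6.9, 10.4 ± 4.9 and 16.2 ± 13.2. Both were lower in PC3 and in DU145. APP, the amyloid precursor protein, had 94.0 ± 10.3, 106 ± 14 and 117 ± 30 FPKM and did not pass in either comparison.

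Of 24 cornified envelope and late keratinocyte genes, 15 were tested in PC3 against BPH-1, with 0 higher and 12 lower, and 18 in DU145 against BPH-1, with 2 higher and 12 lower (medians −2.01 and −1.83). CSTA, cystatin A, had 32.3 ± 7.6 FPKM in BPH-1, 0.025 ± 0.049 in PC3 and 0.45 ± 0.26 in DU145. SPRR1B had 28.4 ± 26.4 and SPRR1A had 26.0 ± 26.1 FPKM in BPH-1, and both had 0 reads in the PCa lines. KRT10, a keratin of the upper epidermis, was higher in DU145, with 18.1 ± 5.2 against 7.88 ± 2.45 FPKM in BPH-1 (limma, log2 1.10, SE 0.26, adjusted p = 0.00403). Of 21 epithelial transcription factors, 20 were tested in PC3 against BPH-1, with 1 higher and 14 lower, and 20 in DU145 against BPH-1, with 3 higher and 15 lower (medians −0.74 and −0.97). SNAI2 had 65.3 ± 12.8, 8.51 ± 2.40 and 5.50 ± 2.39 FPKM in BPH-1, PC3 and DU145, and EHF, an ETS factor of epithelium, had 13.9 ± 3.4, 1.57 ± 0.87 and 0.085 ± 0.085. KLF5 and TFAP2C were also lower in both PCa lines, by −0.86 and −0.61 in PC3 and by −2.25 and −0.83 in DU145 (log2).

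At the androgen-regulated end of the cluster, KLK1 was the one gene of 5 that passed the filter. It passed through BPH-1, where it is high, with 176 reads there, 23 in PC3 and 9 in DU145, so its falls are a description. It had a mean of 0.79 ± 0.39 FPKM in BPH-1, 0.12 ± 0.02 in PC3 and 0.043 ± 0.050 in DU145, and fell by 0.65 (log2, SE 0.14) in PC3 (limma, adjusted p = 0.00212) and fell by 0.75 (SE 0.14) in DU145 (limma, adjusted p = 0.000943). KLK3 had 0 reads, KLK2 had 3 reads in BPH-1 and none elsewhere, KLK4 had 7 reads in PC3 alone, and KLK15 had 20 reads in DU145 alone.

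Genes whose pattern over the 12 libraries was most like that of the 3 most abundant members were ranked by the root mean square difference of centred log2(FPKM + 1). Among 12492 genes tested in all 3 comparisons, the nearest to KLK10 were RAET1L (0.17), NYNRIN (0.17) and TGM1 (0.19), to KLK7 UBA7 (0.16), IFI44L (0.17) and MUC16 (0.19), and to KLK6 DGLUCY (0.079), PASK (0.11) and SYT14 (0.12). KLK5 and the other members were not tested in PC3 against DU145, as were most genes silent in both PCa lines. With genes tested in both comparisons against BPH-1, a pool of 13109 chosen after the values were seen, the nearest to KLK10 were ABCA12 (0.10), a lipid transporter of the epidermal barrier, RBBP8NL (0.14) and TMPRSS13 (0.15). For KLK7 they were GBP6 (0.11), KRT23 (0.13) and CXorf49 (0.13), and for KLK6 SEMA4A (0.059), TRO (0.068) and TMEM255A (0.072). ABCA12 had 1.62, 4.63, 1.14 and 3.81 FPKM in BPH-1 replicates 1 to 4, high in the same libraries as KLK10. The ranking over these same libraries selects for such a match, so it is a description and no separate evidence.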

How the data were processed

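RNA-seq of BPH-1, DU145 and PC3 (4 libraries each) was re-analysed. The authors deposited FPKM of 58302 genes with GRCh38 coordinates, without a unit in the header. Submitters' processing notes name CASAVA 1.8, HISAT2 2.1.0 and edgeR, with no roles, and the counter, its use of strand and filters are not given in the sources used here. Dividing by the summed length of distinct GENCODE 29 exons, 92.2% to 93.8% of low values came out as whole reads (within 0.02) per library, against 9.52% to 20.2% with merged exons. For 9 members this length gave whole reads, and that of KLK14 was taken from its steps (1323 instead of 1679 bases). 263 genes without a length were left out, and 0 columns were unassigned.

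A count test had been planned for counts. The values being FPKM, limma 3.58.1 (R 4.3.3, intensity trend) was fitted to log2(FPKM + 1) over the 8 libraries compared, on genes with a value worth 10 or more reads in 4 libraries (at median depth) and 15 reads in all, with Benjamini-Hochberg adjustment and a threshold of 0.05. On simulated data it recovered most of the changed genes. The simulation set changes only in well-covered genes and gave every gene the same dispersion. It therefore does not cover members with few reads or a wide spread between libraries. Single members had exact two-sided permutation tests. Floors of 3 reads and 95% intervals cover counting error only. Alternatives changed the filter, pseudocount (0.1), scaling, model, test and libraries. Replicate numbers did not pair libraries.

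All members are named. Other lists name the 4 genes of highest mean FPKM. Some items of the lists are not reported here and were left out of their counts and sums. Members and lists were chosen with earlier results of these data known. Promoters are from RefSeq (GRCh38.p14). Python 3.11.15, numpy 2.4.6, pandas 2.3.3, scipy 1.17.1 and matplotlib 3.10.9 were used.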

Additional observations from a re-analysis of the deposited data

Results flagged for a closer look

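Among the 30 groups of 4 libraries (10 kallikreins in 3 lines), 6 held 1 library far from the others by the gap to its nearest neighbour. In each of the 6, all reads of a line came from a single library and the other 3 libraries were at 0, so the gap is fixed by the zeros and no chance rate applies. Another 11 groups were at 0 in all 4 libraries. They were KLK7 in DU145 replicate 3 (0.0113 FPKM, 1 read), KLK8 in DU145 replicate 1 (0.0149 FPKM, 1 read), KLK8 in PC3 replicate 4 (0.0187 FPKM, 1 read), KLK11 in PC3 replicate 3 (0.0426 FPKM, 4 reads), KLK12 in BPH-1 replicate 4 (0.134 FPKM, 7 reads) and KLK13 in BPH-1 replicate 2 (0.0990 FPKM, 5 reads).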

How the results depend on the processing

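In PC3 against BPH-1, 4 members were called, all lower, beside 40.4% of 16408 genes lower, and leaving out each library in turn gave 4 to 4. Asking for an absolute log2 fold change over 1 left 2 (KLK7 and KLK10), beside 17.6% of genes lower. In DU145 against BPH-1, 4 were called, beside 32.4% of 17016 genes lower. The count was 4 to 4 without each library in turn, and between 2 and 5 over the 21 alternatives. Leaving out pairs of DU145 libraries, chosen after seeing the data, gave 3 (replicates 1 and 2), 2 (replicates 1 and 3, KLK6 and KLK10) and 4 (replicates 2 and 4). Beside these, 4975, 5201 and 6496 of 17016 genes were called lower. In PC3 against DU145, 0 were tested. With no filter 1 (KLK14) was called, beside 11.3% of genes higher, and 1 by the exact permutation test, beside 30.3% in either direction. No direction reversed. A stricter filter left no member to test. Replicate numbers did not pair the libraries (correlations of same-numbered libraries from −0.67 to 0.52), and a replicate block kept 4 calls and 4 calls. Scaling moved the background. Of genes called in PC3 against BPH-1, 40.2% were higher as deposited, 30.3% with equal sums of FPKM and 54.7% with upper-quartile scaling, with medians of −0.13, −0.28 and 0.09, and the 4 members were lower under each. With log2(FPKM + 0.1) or voom on recovered reads their changes were larger, to −7.26 for KLK7 in PC3. Depth limits KLK8, KLK9, KLK12, KLK13 and KLK14, which rest on 38 reads or fewer per line.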
